A study of Mus musculus with 8 samples.

Results

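Olfactory receptor genes are the largest gene family of the mouse, and this account concerns those of them that had open chromatin in embryonic stem cells. The genes were the RefSeq protein-coding genes of mm10 whose symbol is Olfr followed by digits. A gene was taken as a member when a region of any of the 4 deposited lists came within 1000 bp of either annotated end of the gene. Of 1106 such genes 43 qualified (3.89%), against 65.2% of the 20794 other protein-coding genes. Members were thus chosen by the presence of regions in these same lists, so the presence or absence of a member in a list is given as a description, with no test.

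An olfactory receptor is a G protein-coupled receptor that binds odorants on the cilia of olfactory sensory neurons. Each such neuron expresses a single receptor allele, and the rest of the family is kept in compact heterochromatin there. Outside the nose the genes are mostly silent, and the coding part of a receptor is usually a single exon. Receptors fall into class I, related to those of fish, which in the mouse lie in a cluster on chromosome 7, and the larger class II, spread over many clusters.

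The data are ATAC-seq, which marks DNA open to a transposase, from mouse embryonic stem cells grown for 4 passages in 2i/LIF, a medium that keeps them in the naive state. Ubc9-depleted cells are of the v6.5 line with a TET-OFF system in which Ubc9, the enzyme that passes SUMO to its targets, is switched off by 72 hours of doxycycline, and Ubc9 control cells are of the same line. The labels name the drug for the depletion alone, so an effect of doxycycline and an effect of Ubc9 loss cannot be told apart. H1 triple-knockout cells (H1.2-/-H1.3-/-H1.4-/-) lack 3 linker histones and were set beside H1 wild-type cells, both lines taken from an earlier publication. Each of the 4 groups had 2 replicates, which the authors combined into 1 list of regions, so there is no spread between replicates, no test, and no p-value below.

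The lists held 46847 to 58039 regions, and the read depth behind them is unknown. Each region carries a score that the authors deposited, 50 or more, which ranks regions within a list. Of 10 stem cell markers, 8 had a gene-end region in the Ubc9 control and both H1 lists and 6 in the Ubc9-depleted list. Pou5f1 and Esrrb had none in any list, and Utf1 and Tdgf1 lacked one in the Ubc9-depleted list alone. Over protein-coding genes other than Olfr, 54.0% to 57.1% had a gene-end region in a list. Of 10 markers of olfactory sensory neurons, Gng8 had a gene-end region in each list and Adcy3 in the Ubc9-depleted list, while Omp, Cnga2, Gnal and the other 5 had none in any list. Of 8 fibroblast markers, 1 or 2 had a gene-end region in each list. H1f2 and H1f3, which encode H1.2 and H1.3, had 0 bp covered by regions of knockout cells, against 725 and 242 bp in wild-type cells. For H1f4 the covered lengths were 20 and 38 bp.

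Open regions seldom reached the promoter entry of a member, and the 4 entries with the most covered bases are shown as the sequences that were open at or near a receptor's start. Of 43 members, 38 had an entry in the RefSeq promoter table for GRCm38.p6, which gives 250 bases before and 50 after the annotated start, and in 5 of the 38 a region overlapped that stretch. Capitals mark the bases that lie inside a region of any list, and sequences run 5′ to 3′ along the gene's strand. Olfr94 (chr17:37197917-37198216, minus strand) was open in the H1 lists, Olfr5 (chr7:6486764-6487063, minus) in knockout cells alone, Olfr545 (chr7:102494724-102495023, minus) in all 4 lists, and Olfr373 (chr8:72099512-72099811, plus) in the lists of the Ubc9 pair. The regions of Olfr545 crossed the end of the gene, while those of Olfr94 and Olfr373 stopped 113 to 117 bp and 11 to 68 bp upstream of it. No entry was overlapped for the members open in depleted cells alone.
Olfr94: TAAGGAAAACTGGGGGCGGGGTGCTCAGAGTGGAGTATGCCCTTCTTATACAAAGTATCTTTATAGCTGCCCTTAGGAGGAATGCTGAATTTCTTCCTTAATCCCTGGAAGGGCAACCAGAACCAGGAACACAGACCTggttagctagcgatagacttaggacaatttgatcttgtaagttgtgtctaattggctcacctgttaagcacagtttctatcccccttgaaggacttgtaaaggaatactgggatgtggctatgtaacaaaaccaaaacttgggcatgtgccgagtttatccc
Olfr5: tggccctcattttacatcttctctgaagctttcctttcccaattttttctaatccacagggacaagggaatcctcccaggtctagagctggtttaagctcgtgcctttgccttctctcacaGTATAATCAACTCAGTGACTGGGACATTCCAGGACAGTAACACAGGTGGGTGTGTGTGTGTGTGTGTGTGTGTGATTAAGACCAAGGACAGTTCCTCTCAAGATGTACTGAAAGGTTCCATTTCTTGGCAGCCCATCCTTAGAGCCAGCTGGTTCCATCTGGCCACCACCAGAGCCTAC
Olfr545: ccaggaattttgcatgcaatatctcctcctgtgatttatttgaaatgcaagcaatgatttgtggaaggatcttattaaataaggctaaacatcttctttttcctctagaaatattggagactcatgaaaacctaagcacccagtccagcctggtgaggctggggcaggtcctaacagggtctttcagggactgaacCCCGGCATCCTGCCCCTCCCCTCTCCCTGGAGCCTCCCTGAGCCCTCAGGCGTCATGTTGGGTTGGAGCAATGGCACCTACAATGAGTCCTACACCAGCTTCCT
Olfr373: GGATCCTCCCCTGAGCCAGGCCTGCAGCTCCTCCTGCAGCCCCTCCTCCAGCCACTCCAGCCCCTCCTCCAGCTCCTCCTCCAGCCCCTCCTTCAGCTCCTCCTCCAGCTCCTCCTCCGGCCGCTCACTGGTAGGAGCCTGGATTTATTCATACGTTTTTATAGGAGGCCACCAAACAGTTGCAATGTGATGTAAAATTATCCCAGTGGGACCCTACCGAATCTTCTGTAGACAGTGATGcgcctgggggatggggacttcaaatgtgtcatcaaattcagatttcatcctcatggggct
The fifth, Olfr543, had 4 covered bases. In Olfr373 regions covered 240 bases in depleted and 183 in control cells. In Olfr94 regions covered 134 bases in knockout and 138 in wild-type cells, in Olfr5 179 bases, and in Olfr545 between 56 and 104 bases.

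These 5 stretches had a GC content of 40.7% to 56% and 1 to 5 CpG dinucleotides. The medians were 41.3% and 1 CpG over the 38 member promoters, 35% and 1 over 906 promoters of other Olfr genes, and 62% and 22 over 11733 promoters of other genes that a region overlapped. Letters of 6 motifs were searched on both strands. GGGCGG, the GC box of Sp and Klf factors, was in 1 of the 5 (Olfr94) and in 46.2% of all 21263 protein-coding promoters. Neither CCCNNGGG, of the type bound by Ebf factors, nor TAATTA, of the type bound by Lhx2, was in any of the 5. They were in 2 and 4 of the 38 member promoters (5.26% and 10.53%), in 2.98% and 18.98% of other Olfr promoters and in 15.6% and 4.53% of all promoters. ATGCAAAT, CCGGAAG and CACGTG were in 0, 0 and 1 of the 38, and in 1.66%, 11.6% and 7.84% of all. Motifs may overlap each other.

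By list, 21 Olfr genes had a gene-end region in Ubc9-depleted cells, 26 in Ubc9 control cells, 27 in H1 triple-knockout cells and 29 in H1 wild-type cells. This is 1.90%, 2.35%, 2.44% and 2.62% of the family, with exact 95% binomial intervals of 1.18 to 2.89, 1.54 to 3.43, 1.61 to 3.53 and 1.76 to 3.74 that all overlap. The regions numbered 21, 27, 30 and 30, and none lay at the end of a gene of another kind. Their scores lay below those of other gene ends. The median stood at percentile 35.7, 42.7, 39.2 and 52.0 of the lists, while other gene-end regions stood at 77.9, 72.7, 71.5 and 69.9. They were also short, with median widths of 344, 293, 234.5 and 250.5 bp against 667, 557, 322 and 344 bp at other gene ends. Regions at no gene end were nearer to them, with medians at percentile 42.9, 43.8, 45.1 and 45.3 and widths of 390, 333, 246 and 258 bp.

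**Figure D1:**
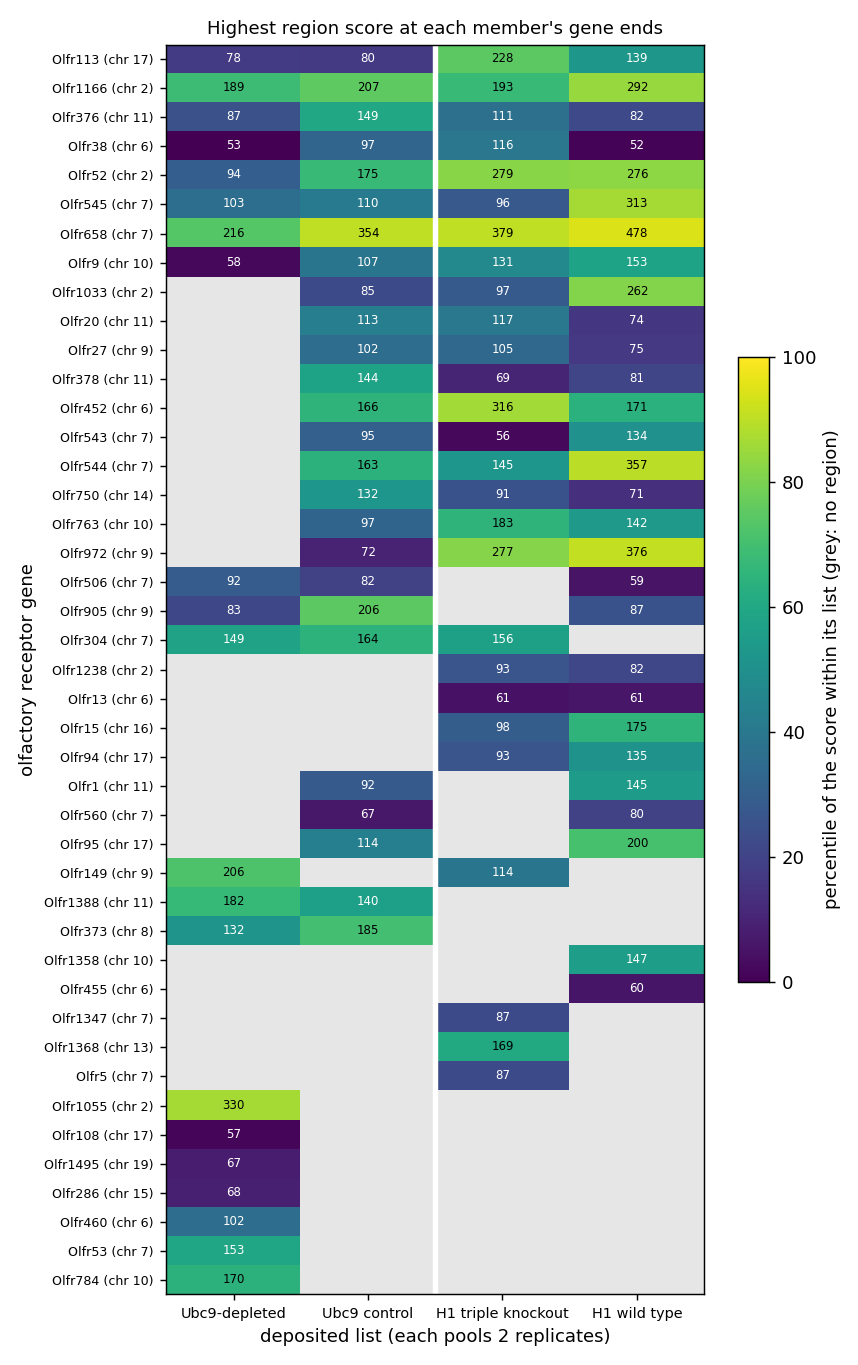
Highest region score (number) and its percentile within the list (colour, 0 to 100) at the ends of each of the 43 member genes in the 4 lists, with grey where no region was within 1000 bp. The top 8 genes have a region in all 4 lists, the next 10 in all but the Ubc9-depleted list, and the bottom 7 in the Ubc9-depleted list alone.

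A region in all 4 lists was found at 8 of the 43 members. Of 13564 other protein-coding genes with a gene-end region in any list, 9397 had one in all 4. The 8 members were Olfr658, Olfr1166, Olfr52, Olfr545, Olfr9, Olfr113, Olfr376 and Olfr38. The strongest was at Olfr658, a class I receptor gene on chromosome 7 (104642880 to 104647305). Its scores were 216.4 in Ubc9-depleted, 354.4 in Ubc9 control, 378.5 in knockout and 477.9 in wild-type cells, at percentiles 73.7, 90.6, 90.6 and 94.7 of the lists, and each list had a region across the upper-coordinate end of the gene, in knockout cells as the second of 2 neighbouring regions. It was the highest-scoring member in the control, knockout and wild-type lists. Olfr1166 on chromosome 2 scored 189.4, 207.4, 193.0 and 292.4, downstream of the gene by 37 to 73 bp. Olfr545, a class I gene whose regions crossed the start of the gene, scored 102.9, 110.3, 95.8 and 313.5. The wild-type region of Olfr545 stood at percentile 86.5 and the others between 27.98 and 41.4.

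Olfr52 had 94.0, 175.2, 278.9 and 275.9 downstream of the gene, in the same order of lists, and a weaker upstream region in control (109.0) and knockout cells (63.6). Olfr113 had 77.9, 79.6, 228.2 and 139.1 downstream of the gene, with 2 neighbouring regions of that score in knockout cells. Olfr9, open inside the gene, had 58.3, 106.9, 131.2 and 152.8, and its depleted region lay at percentile 2.13. At Olfr376 and Olfr38 the depleted region was not the one of the other lists. It lay outside the gene, 926 and 623 bp from an end, while the regions of the other 3 lists lay inside. Counted by position, the members held 48 separate open sites, of which 6 had a region in all 4 lists, 11 in all but the depleted list and 8 in the depleted list alone. In all 14 sites, those 8 among them, were open in 1 list. The site of Olfr53 counts as open in knockout cells too, through a region that overlaps the depleted one but lies beyond 1000 bp of the gene. Sites at other genes were not counted in this way, so whether these site patterns are particular to receptors was not tested.

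The Ubc9 pair addresses how chromatin access changes once SUMO can no longer be attached. At receptor gene ends, 16 of the 27 control regions (59.3%, exact 95% interval 38.8 to 77.6) had no overlapping region in depleted cells. Over all gene-end regions of the control list this share was 11.7%, and over all its regions 43.3%. By gene, 13 of 26 receptors with a control region had none in depleted cells, against 7.57% of all genes with one. The highest-scoring of the 13 were Olfr452 (chromosome 6, score 165.8), Olfr544 (chromosome 7, 163.2), Olfr378 (chromosome 11, 143.8), Olfr750 (chromosome 14, 131.7), Olfr95 (chromosome 17, 113.5) and Olfr20 (chromosome 11, 112.5). The median score of the control regions was 105.6 where the region had no partner and 163.6 where it had one. Olfr905 on chromosome 9 kept its region, which scored 206.4 in control and 83.2 in depleted cells, at percentiles 74.9 and 21.7.

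The regions missing from depleted cells were present in the other cell lines. All 16 overlapped a region of at least 1 H1 list (interval 79.4 to 100), 15 of them in wild-type and 12 in knockout cells. Among control regions without a depleted partner at other gene ends, 78.2% (75.8 to 80.4) overlapped an H1 list, so the intervals touch. Olfr972 on chromosome 9, upstream of the gene, had a weak control region (71.7, percentile 10.1) but scored 276.8 and 376.0 in knockout and wild-type cells, at percentiles 81.9 and 90.8. Olfr544 scored 144.9 and 357.4 there and Olfr452 315.5 and 170.6. For Olfr1033 on chromosome 2, whose regions cross a gene end, the scores were 85.3, 96.6 and 262.3 in control, knockout and wild-type cells.

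Most of these sites lay within the receptor gene itself, a split that was examined after its values were seen. Of 12 control regions wholly inside an Olfr gene, 10 had no depleted partner (83.3%, interval 51.6 to 97.9), and Olfr9 and Olfr304 kept one. Of the 15 others 6 had none (40%, 16.3 to 67.7), and these intervals overlap. In other genes the shares were 23.5% of 1885 regions inside and 9.15% of 9084 not inside. Weighted to the scores of the Olfr regions they were 26.3% and 18.2%. Regions inside Olfr genes were narrow, with median widths of 237 bp in control, 190.5 bp in knockout and 207 bp in wild-type cells. The depleted list held 3 such regions, the others 12, 14 and 15.

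**Figure D2:**
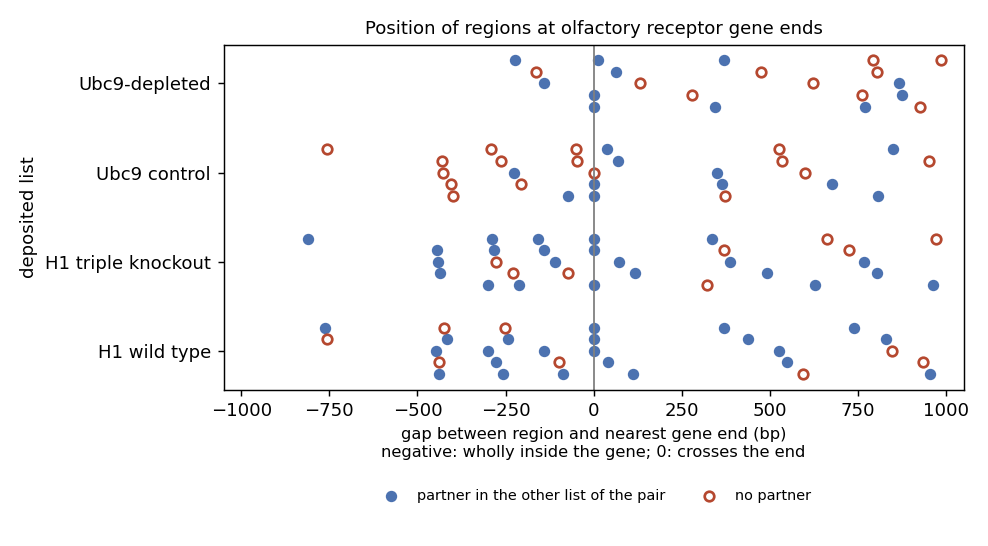
Gap in bp between each region and the nearest end of its receptor gene (negative where the region lies wholly inside the gene, 0 where it crosses the end) in the 4 lists, spread vertically for clarity. Filled points have an overlapping partner in the other list of the pair and open points have none. Of the 12 Ubc9 control points inside genes 10 are open points. A knockout region shared by Olfr5 and Olfr1347 is drawn for each gene.

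In some subfamilies the members were open at like places, a pattern noticed after their values were seen, and in others they were not. The older MOR names, kept as synonyms in RefSeq, number the subfamilies. MOR family 135 has 18 genes, of which 4 were members, namely Olfr20, Olfr376, Olfr1 and Olfr378, close together on chromosome 11. Each of the 4 had a region inside the gene that began 398 to 448 bp from the nearer gene end. These regions were 143 to 223 bp wide. All 4 members were open there in control and wild-type cells, and none in depleted cells. In knockout cells Olfr1 had no region. In MOR family 257, of 6 genes, the members Olfr38 and Olfr452 on chromosome 6 had regions 206 to 284 bp from an end. They had them in the 3 lists other than the depleted one. In MOR family 269, of 3 genes, the members Olfr9 and Olfr763 on chromosome 10 had regions 223 to 300 bp from an end. Olfr763 lacked one in depleted cells. The 3 genes of MOR family 42, the class I receptors Olfr543, Olfr544 and Olfr545, which lie next to each other, were all members, but their inside regions lay 46 to 811 bp from an end and those of Olfr545 crossed one. In MOR family 256, of 49 genes, 2 of 4 members were open inside the gene, 88 to 277 bp from an end. In MOR family 103, of 17 genes, 1 of 3 members was, and in MOR family 171, of 36, neither Olfr27 nor Olfr972. Coding sequences within a subfamily are similar, and the placing of reads that match several copies is not stated. Whether that bears on the paired positions was not tested.

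In the other direction, 10 of 21 regions of depleted cells (47.6%, interval 25.7 to 70.2) had no control partner, against 11.9% of all gene-end regions and 45.6% of all regions of the depleted list. By gene, 8 of 21 receptors had a region in depleted and none in control cells, against 9.73% of all genes. Olfr1055 on chromosome 2 led them with a region of 935 bp that began 761 bp downstream of the gene. Its score of 330.1 was the highest of any member in the depleted list, at percentile 86.3. Olfr149 (chromosome 9) followed with 206.2, Olfr784 (chromosome 10) with 170.2, Olfr53 (chromosome 7) with 153.0, Olfr460 (chromosome 6) with 102.1 and Olfr286 (chromosome 15) with 68.0. Olfr1495 (67.2) and Olfr108 (57.1) complete the 8.

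Few of these sites were open in the H1 lines. Of the 10 regions, 2 overlapped a knockout region, at Olfr149 and Olfr53, and 0 a wild-type region (interval 0 to 30.9). Among depleted regions without a control partner 36.5% (33.9 to 39.2) at other gene ends and 14.9% (14.4 to 15.4) at no gene end overlapped an H1 list. The 20% of the receptor regions, with an interval of 2.52 to 55.6, cannot be told from either. Of the 10 regions 9 lay outside the gene, and the region inside Olfr1495 was the exception. This is near the share over all depleted receptor regions, of which 18 of 21 were not wholly inside the gene.

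The H1 pair addresses how access changes when linker histone is depleted. Of 30 wild-type regions at receptor gene ends 8 had no knockout partner (26.7%, interval 12.3 to 45.9), against 16% of all gene-end regions and 28.8% of all wild-type regions. Of 30 knockout regions 7 had no wild-type partner (23.3%, 9.93 to 42.3), against 15.1% and 31.4%. By gene, 7 of 29 receptors had a wild-type region and no knockout region (9.24% of all genes), and 5 of 27 the reverse (8.65%). Olfr95 (score 200.2), Olfr1358 (147.3), Olfr1 (145.1), Olfr905 (87.4), Olfr560 (79.6) and Olfr455 (60.2) led the wild-type set, which Olfr506 (59.3) completes. Olfr1368 (169.1), Olfr304 (156.1), Olfr149 (114.3) and the neighbours Olfr5 and Olfr1347, which share a region (86.5), made up the knockout set. Both H1 lists had a region at 22 members, and both Ubc9 lists at 13.

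Among members in both H1 lists, Olfr658 and Olfr972 stood high in each, Olfr13 on chromosome 6 low in each (60.5 in knockout and 60.5 in wild-type cells, at percentiles 4.73 and 6.04). Olfr15, Olfr94, Olfr13 and Olfr1238 were open in the H1 lines and in neither list of the Ubc9 pair. Olfr15 scored 97.8 in knockout and 174.9 in wild-type cells, and Olfr94 93.0 and 134.7. Olfr1388 and Olfr373 were open in the Ubc9 pair and in neither H1 list, with 182.2 and 132.3 in depleted and 139.7 and 185.0 in control cells. The H1 and Ubc9 lines differ in origin and their lists in form, so these differences between lines have no control.

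Since weak regions find a partner less often, the shares were set beside those of regions of like score in the same list, in 6 score classes weighted by the receptor regions in each. For control regions missing from depleted cells, the receptor share of 59.3% stood beside 19.9% at other gene ends of like score. The difference was 39.4 percentage points, and 18.9 to 57.8 when the counting interval of the 27 regions is carried over. Within score classes the shares were 5 of 7 receptor regions against 34.6% for scores of 75 to 100, 7 of 10 against 15.8% for 100 to 150, and 2 of 7 against 4.89% for 150 to 250. Without the regions wholly inside receptor genes the difference was 19.7 points (-3.94 to 47.4). Beside regions of like score at no gene end, where 54.4% had no partner, it was 4.83 points (-15.6 to 23.2). With all regions counted, the receptor share lay above that of other gene ends of like score. It could not be told from that of regions away from gene ends. The counting interval takes the 27 regions as independent and holds no spread between replicates. Some of the regions lie in neighbouring genes of the same subfamily, such as MOR family 135, so the interval may be too narrow.

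The other 3 comparisons gave differences whose intervals include 0. For depleted regions missing from control cells the shares were 47.6% and 28.9%, a difference of 18.7 points (-3.20 to 41.3). With a window of 2000 bp it was 29.3 points (13.3 to 44.2) over 43 regions, and for depleted regions scoring 100 or more 32.6 (3.88 to 63.8) over 11. For wild-type regions missing from knockout cells they were 26.7% and 25.7%, a difference of 0.926 points (-13.5 to 20.2), which became 28.8 (4.76 to 54.0) when a score of at least 100 was asked of both lists. For knockout regions missing from wild-type cells they were 23.3% and 25.6%, a difference of -2.24 points (-15.6 to 16.7).

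**Figure D3:**
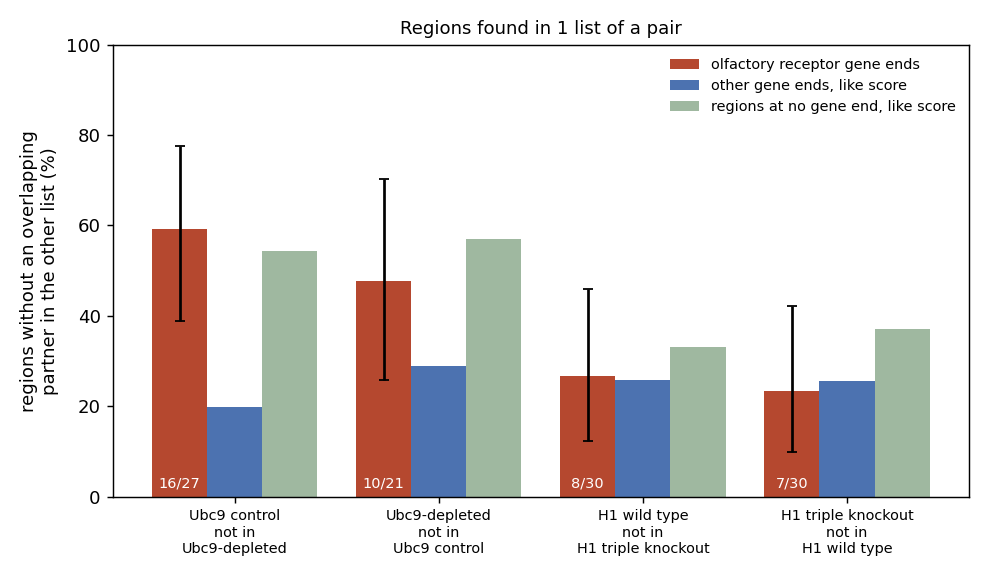
Percent of regions in 1 list of a pair with no overlapping region in the other, for receptor gene ends (bars with exact 95% intervals, counts at the base), other gene ends of like score and regions of like score at no gene end. The receptor bar stands at 59.3% in the first comparison, beside 19.9% and 54.4%, and within 3 points of other gene ends in both H1 comparisons.

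The stretches around the receptors were counted as well. Olfr genes within 1 Mb of each other were joined, which gave 40 clusters of at least 2 genes with 1096 genes over 34.8 Mb, and all 43 members lay in 20 of them. Counting every region in the clusters, depleted cells had 663 (exact 95% Poisson interval 613.5 to 715.4) and control cells 471 (429.4 to 515.5), a ratio of 1.41, while the ratio over all placed regions was 1.04. Depleted cells had more regions in 30 clusters, fewer in 5 and equal numbers in 5. The class I cluster of chromosome 7 held 52 and 53, and the largest cluster, on chromosome 2 with 222 genes, 72 and 50. In the H1 pair the clusters held 632 and 621 regions, a ratio of 1.02 against 1.05 over all, with more in 18 clusters, fewer in 11 and equal numbers in 11.

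Away from any gene end, 369 of 569 depleted regions in the clusters had no control partner (64.9%, interval 60.8 to 68.8), against 54.5% of regions of like score elsewhere in the genome. Of 362 control regions there, 164 had no depleted partner (45.3%, 40.1 to 50.6), against 52.5% elsewhere. Both intervals leave out the value elsewhere, but they cover counting error only. They take neighbouring regions of a cluster as independent and hold no spread between replicates. In the H1 pair the shares were 31.1% (27.1 to 35.4) of knockout regions against 34.6%, and 30.9% (26.8 to 35.2) of wild-type regions against 29.9%. Receptor clusters had more regions in depleted than in control cells, and at the receptor genes' ends the order turned with the setting. There 21 genes were open in depleted and 26 in control cells, but 42 and 36 with a window of 2000 bp, and 18 and 14 without regions wholly inside the gene. Density per Mb in the clusters was 19.1, 13.5, 18.2 and 17.9 in depleted, control, knockout and wild-type cells, against 17.8, 17.2, 21.3 and 20.4 elsewhere.

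**Figure D4:**
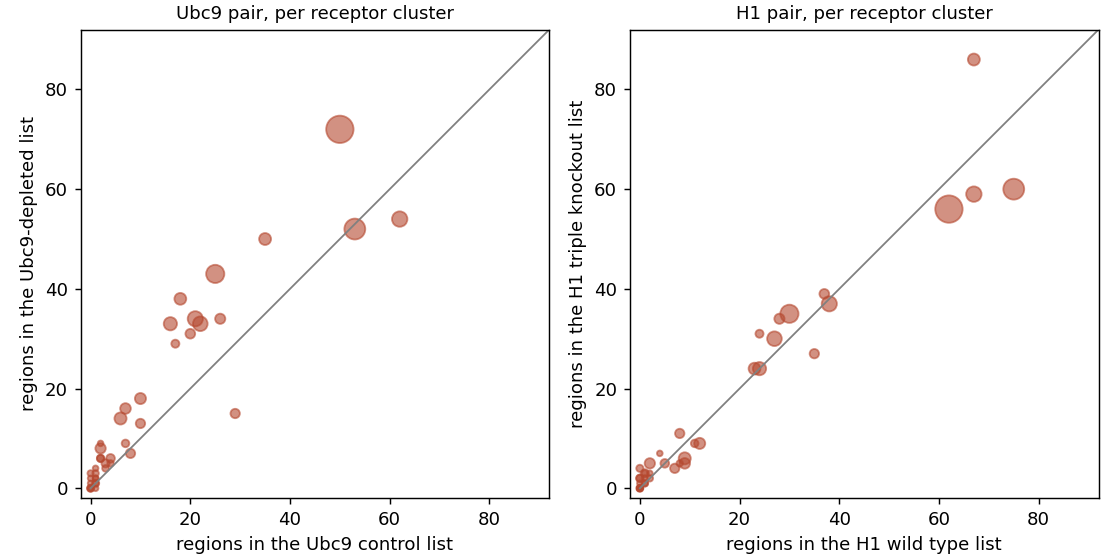
Number of regions in each of the 40 receptor clusters in the perturbed list (vertical) against the control list (horizontal) of the Ubc9 pair (left) and the H1 pair (right). Point area grows with the number of Olfr genes and the line marks equal numbers. In the Ubc9 pair 30 clusters lie above the line and 5 below, in the H1 pair 18 and 11.

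The members differed from the rest of the family in where they lie, described here without a test. A gene of another kind was within 50 kb of 19 of 43 members (44.2%, interval 29.1 to 60.1) and of 23.3% (20.8 to 26.0) of the 1063 other Olfr genes, and the median distance was 51923 bp against 134315 bp. Chromosome 6 held 5 members among 28 Olfr genes (17.9%) and chromosome 2 held 5 among 286 (1.75%), against 3.89% over the family. Chromosome 7, with 10 among 237 (4.22%), was near the family's share. Chromosomes 1, 3, 4 and X held none, among only 27, 2, 24 and 6 genes. The class I cluster of chromosome 7 held 5 of the 43 members and 126 of the 1106 Olfr genes. Gene models of 31 members (72.1%) and 840 others (79.0%) had a length divisible by 3, as models of the coding part alone do. Long models such as that of Olfr286 (7776 bp) are among them. Models under 1000 bp were 22 of the members (51.2%, 35.5 to 66.7) and 71.4% (68.6 to 74.1) of the others. The windows reach 1000 bp to each side of either end and overlap in short models. Longer models have more sequence within their windows, so the membership rule itself favours them. In models under 1000 bp the annotated start may be the start of the coding part rather than of transcription.

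By position, 44 of the 109 pairings of a region with a receptor gene lay wholly inside the gene, 34 downstream, 14 upstream and 11 across an end, and for 6 in a flank the strand was not given. Just inside the limit of 1000 bp were Olfr972 (951 bp), Olfr1347 (971 bp) and Olfr53 (987 bp). Just outside were Olfr1371 (1066 bp, score 97.2 in depleted cells), Olfr687 (1126 bp, 290.6 in knockout cells) and Olfr675 (1170 bp, 74.8 in control cells). Within 2000 bp there were 71 Olfr genes, within 5000 bp 210.

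Other chemosensory receptor families also had few open gene ends. Among 230 Vmn1r genes, which encode vomeronasal receptors, 5 had a gene-end region in depleted cells and 3 in each other list, and among 123 Vmn2r genes 4, 2, 3 and 1 in depleted, control, knockout and wild-type cells. None of 15 Taar, 35 Tas2r and 7 Fpr genes had one in any list. Of 18 genes of olfactory signalling, 6, 5, 3 and 4 had a gene-end region (33.3%, 27.8%, 16.7% and 22.2%). Over protein-coding genes other than Olfr the shares were 57.1%, 55.75%, 54.0% and 54.3%. Ric8b, a chaperone of the olfactory G protein, and Cnga4, a subunit of the cyclic nucleotide-gated channel, had one in all 4 lists, and the G protein subunit Gnal and the marker Omp in none. Adcy3, the adenylyl cyclase of the pathway, and Gnb1, a G protein beta subunit, had one in depleted cells only. These 2 of 6 genes are too few to set apart from the 9.73% over all genes. Slc24a4 went the other way, with one in control and knockout cells and none in depleted cells. Pde1c and Reep1 lacked one in knockout cells alone. Of 15 genes that act in receptor choice, 9 had a region in all 4 lists, against 9397 of 20794 genes other than Olfr. Among the 9 were Lhx2, Ebf1 and the demethylase gene Kdm1a. By list the shares of the 15 were 80%, 60%, 60% and 60%, with intervals that include the shares of genes other than Olfr. Ebf3, Ebf4 and Ehmt2 had a region in depleted cells only. Those 3 of 12 genes are too few to set apart from the 9.73% of all genes with a region in depleted and none in control cells.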

How the data were processed

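Each of the 4 deposited lists was made from 2 replicates, per the series' design text, so groups were compared by overlap of lists and no test was run. Per the submitters' processing notes reads passed through CASAVA (1.8.2), Bowtie2 and Picard, regions came from MACS (1.4.2-1), and the build was mm10. Their settings, any shift of reads for the transposase, how replicates were combined and how reads matching several receptor copies were placed are not given in the sources used here. The score of each region is the authors' deposited value and was used within a list only. In the H1 lists 1 peak can be split into several regions of equal score.

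Genes came from RefSeq for GRCm38.p6 (21900 protein-coding genes), whose coordinates are those of mm10. A region belonged to a gene when it came within 1000 bp of either end, since the gene table has no strand. An overlap of 1 bp made 2 regions shared. Score classes began at 50, 60, 75, 100, 150 and 250. Shares carry exact (Clopper-Pearson) 95% binomial intervals for counting error only. Named genes were those in all 4 lists, the highest-scoring per list, up to 6 per pair and direction, and those nearest the window limit. Others were named after their values were seen. The members and lists were chosen with earlier results of these data known. Python 3.11.15 was used, and the overlap, window and score-class steps were tested on simulated data.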

Additional observations from a re-analysis of the deposited data

How the results depend on the processing

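No paired analysis was possible because each list pools both replicates, and for the same reason no replicate could be left out. The read depth is unknown. Of the values recomputed under alternatives, 132 stayed within 1.5 times the count or within the counting interval, and 32 moved. Some of the 132 could not move, because their setting removed no region. The only difference whose interval left out 0 in the main setting, for control regions missing from depleted cells, kept its sign. Its interval included 0 without regions wholly inside the gene (-3.94 to 47.4) and beside regions at no gene end (-15.6 to 23.2). Other differences changed sign. That of knockout regions went from -2.24 to 9.11 points with scores from 100 up in the counted list. That of depleted regions went from 18.7 to -9.36 points beside regions at no gene end. The number of receptors per list (depleted, control, knockout, wild type) was 11, 17, 16 and 17 for scores from 100 up. Depleted cells had 12 with a window of 500 bp. With 2000 bp they had 42 and control cells 36, which turns the order of 21 and 26, and knockout cells had 42. Without regions wholly inside the gene, an alternative chosen after seeing the data, depleted, control, knockout and wild-type cells had 18, 14, 13 and 15, which turns that order too. Receptors with a region in 1 list of a pair, with scores from 100 up in the counted list, were 7 in control, 5 in depleted, 3 in wild-type and 3 in knockout cells, and with that score in both lists 5 in depleted cells. With 500 bp they were 4 in depleted and 3 in wild-type cells, with 2000 bp 22 in depleted and 9 in knockout cells, and without regions inside the gene 5 in control, 3 in wild-type and 1 in knockout cells. When scores from 100 up were asked of both lists, 47.1% of wild-type and 44.4% of knockout regions had no partner, 28.8 and 18.6 points above other gene ends of like score. Beside regions at no gene end the differences in the Ubc9 pair were 4.83 points for control and -9.36 points for depleted regions. No region lay at the end of a gene of another kind, so leaving such regions out changed nothing. Counting pieces of 1 peak once, the second alternative chosen after seeing the data, moved no share beyond its interval.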

Other observations

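Genes named Olfr that the membership rule leaves out, 322 in number of which 4 are protein-coding, also had open gene ends. A region lay within 1000 bp of an end of 16 of them in Ubc9-depleted cells, 9 in Ubc9 control cells, 13 in H1 triple-knockout cells and 14 in H1 wild-type cells. Olfr1069-ps1, Olfr336-ps1, Olfr400-ps1, Olfr540-ps1 and Olfr793-ps1, named after their values were seen, had one in all 4 lists.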
